A study of Mus musculus with 2 samples.

Results

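MiR-144, miR-451 and miR-486 are microRNAs (miRNAs) known from maturing red blood cells. They were described in 2 RNA samples from C57BL/6J mice, each hybridised to 1 single-colour Agilent miRNA array. The members were the 3 array names mmu-miR-144, mmu-miR-451 and mmu-miR-486, taken by name from the 566 mouse miRNA names in the deposited table, and all 3 were found. The first sample was LKS cells, bone marrow cells negative for lineage markers and positive for Kit and Sca1, a sorted fraction that holds haematopoietic stem and early progenitor cells. The second was total bone marrow (total BM), the unfractionated tissue. The sources used here do not give sex, age, the number of animals pooled or whether red cells were lysed. Each group was 1 array, so there is no test, p-value or SD, and each difference describes these 2 arrays.

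A miRNA silences messenger RNAs that pair with its seed, a short stretch near its 5′ end. In mouse erythroid cells miR-144 and miR-451 are cut from 1 primary transcript that is switched on by the factor GATA1, and loss of the locus leaves red cells sensitive to oxidative stress. MiR-451 is made without Dicer, since its short hairpin is cut by Argonaute 2. MiR-486 lies in an intron of Ank1, the gene of the red cell membrane protein ankyrin, and its passenger strand is removed by Argonaute 2 as well.

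The mature sequences of miR-144 and miR-451 are shown first because they show that these co-transcribed miRNAs have different seeds. They come from RefSeq with the build GRCm38.p6, read 5′ to 3′, and capitals mark the seed (bases 2 to 8). The array name miR-144 was taken as the 3p arm, which carried the name without an arm in older nomenclature, and miR-451 as the single RefSeq product of Mir451a.
mmu-miR-144-3p: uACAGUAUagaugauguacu
mmu-miR-451a: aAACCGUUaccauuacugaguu
MiR-144-3p lies at chr11:78073047-78073066 and miR-451a at chr11:78073186-78073207, both on the plus strand. No run of more than 4 bases is common to both sequences. G and C made up 6 of the 20 bases of miR-144-3p (30%) and 8 of the 22 bases of miR-451a (36.4%). Among 1738 RefSeq mature sequences, none other had the seed of either miRNA. One other, miR-101a-3p at chr4:101346957-101346977 on the minus strand, had bases 2 to 7 of miR-144-3p, and it is shown because its values are set beside those of miR-144 further on.
mmu-miR-101a-3p: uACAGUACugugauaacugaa
Its first 7 bases are those of miR-144-3p, and its seed differs by U8C, counted from 1 at the 5′ end with the base of miR-144-3p first.

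The hairpins from which the miRNAs are cut are shown with the mature miRNA in capitals, because they differ in where that miRNA sits.
Mir144: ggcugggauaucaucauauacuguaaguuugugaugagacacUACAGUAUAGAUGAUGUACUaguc
Mir451a: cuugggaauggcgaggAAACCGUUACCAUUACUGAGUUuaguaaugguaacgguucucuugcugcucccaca
Mir144 (66 bases, chr11:78073005-78073070) and Mir451a (72 bases, chr11:78073170-78073241) lie 99 bases apart on the plus strand, with no RefSeq gene between them. In the minimum free energy fold (RNAfold), miR-144-3p took up bases 43 to 62 of its hairpin, all on the 3′ side, with 19 bases paired and none in the terminal loop. MiR-451a took up bases 17 to 38, with 17 bases paired on the 5′ side and its last 4 bases forming the whole predicted loop. The gene matched by miR-486, Mir486 on mouse chromosome 8, lies within the span of Ank1 in RefSeq. Its span also holds Mir3107, listed there as mir-486b, and whether the array probe tells their products apart was not tested.

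All members were detected in total BM and none in LKS cells, by the authors' deposited detection call. A detection call of this kind was lost in LKS cells for 52 of the 145 mouse miRNAs detected in total BM (35.9%), so loss of the call alone was common. Signals are in the linear intensity units of the deposited table, with the error deposited for each signal, and they had been background-subtracted, so values below 0 occur.

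MiR-451, which among its mouse targets represses the adaptor protein 14-3-3 zeta (Ywhaz), was the brightest member. It read 3.67 ± 2.72 in LKS cells and 260 ± 19.4 in total BM. Its total BM signal ranked 34 of 566. The LKS signal lay 1.35 errors above 0 and the total BM signal 13.4 errors above 0. However, 0 was not the middle of the LKS background: names detected on neither array had a median LKS signal of -5.64. MiR-451 lay 9.30 above that median. Of the 467 other names not detected in LKS cells, 16 (3.43%) read higher than miR-451.

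MiR-486, known to repress the transcription factor Foxo1, read -7.42 ± 2.70 in LKS cells and 32.2 ± 3.75 in total BM. Its total BM signal, 8.60 times its error, ranked 81 of 566. MiR-144, the partner of miR-451 on the primary transcript, read -6.84 ± 2.70 in LKS cells and 17.7 ± 3.12 in total BM. That total BM signal was 5.66 times its error and ranked 108 of 566. Both LKS signals lay below 0, as did the LKS signals of 406 of the 566 mouse names.

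The members made up 0.590% of the summed detected signal of total BM, 309.6 of 52484 units, and miR-451 alone gave 83.9% of their sum. Probes differ in affinity, so these shares and the order of the members on 1 array do not rank their abundance. MiR-144 was the faintest: the 6 negative control probes named NC, which were not detected, read up to 17.0 ± 13.0 in total BM, but none of them was over 1.30 times its own error.

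**Figure D1:**
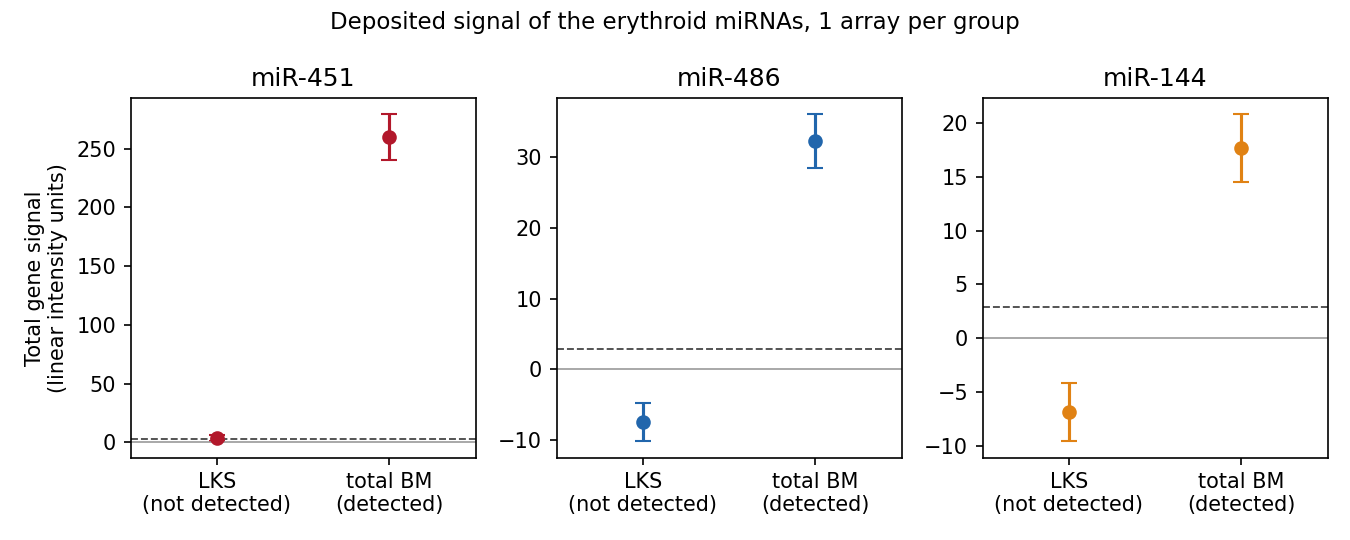
Deposited total gene signal (linear intensity units, separate axis per miRNA) of miR-451, miR-486 and miR-144 in LKS cells (left in each panel) and total BM (right), 1 array each, with bars for the deposited error. The dashed line is the lowest detected LKS signal, 2.91, and every total BM point stands above it while the LKS points of miR-486 and miR-144 lie below 0.

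The difference was first taken without any scaling, as the LKS signal minus the total BM signal over the combined error (the root of the summed squared errors), which measures technical error only. It was -13.1 combined errors for miR-451, -8.58 for miR-486 and -5.93 for miR-144. Across all 566 mouse names, ordered from the lowest, these ranked 9, 37 and 54. The members' median was -8.58, beside -0.86 over all mouse names and -4.00 over the 145 detected in total BM. A deficit of over 5 combined errors, which all 3 members had, was found for 64 of those 145 miRNAs (44.1%).

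**Figure D2:**
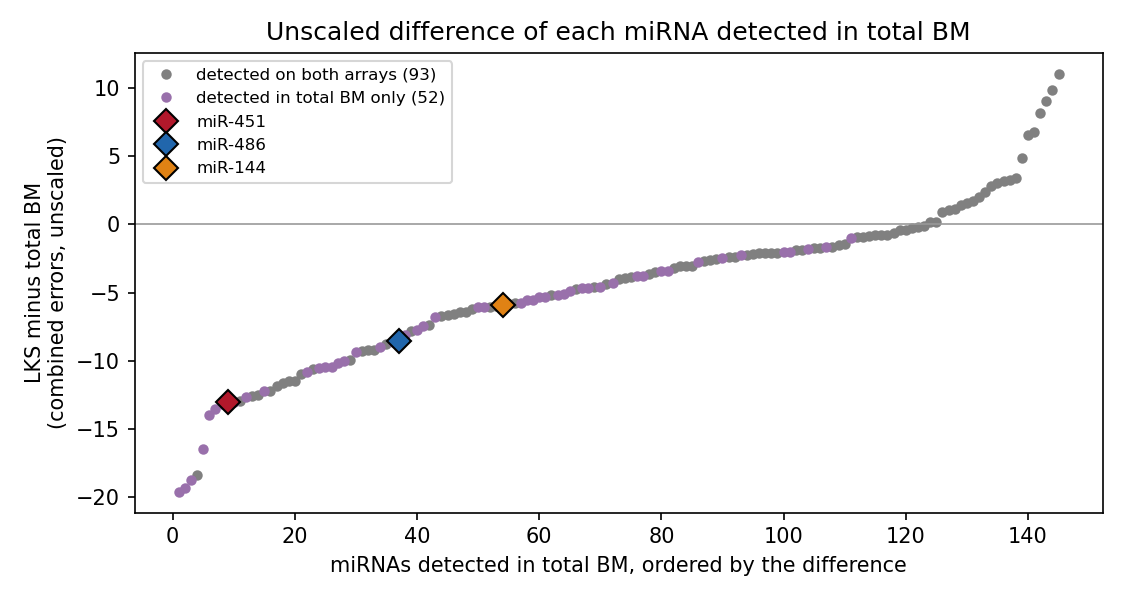
Unscaled difference, LKS minus total BM in combined errors, of the 145 mouse miRNAs detected in total BM, ordered along the horizontal axis. Purple points are the 52 detected in total BM only, grey points the 93 detected on both arrays, and diamonds the members, at -13.1 (miR-451), -8.58 (miR-486) and -5.93 (miR-144).

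For fold differences, each array was scaled to its own 75th percentile among the 93 mouse names that both arrays detected, 242 for LKS and 399 for total BM. An undetected LKS signal was replaced by its own value plus 2 errors, or by 2.91, the lowest detected LKS signal, if that was higher. Each fold is thus a lower bound under this floor and scaling only. The floor of 2.91 is no ceiling for undetected signals, since 25 undetected LKS names read above it, up to 6.39. MiR-451 was at least 17.3-fold lower in LKS cells, miR-486 at least 6.71-fold and miR-144 at least 3.67-fold. All members thus passed a 2-fold rule that 55 of the 145 miRNAs detected in total BM passed in the same direction (37.9%, or 9.72% of the 566 names). The median bound of the 52 names that were detected only in total BM, with those that gave no bound set to 1, was 3.20-fold. Among these 52 the bounds of miR-451, miR-486 and miR-144 ranked 7, 13 and 22.

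The order of the bounds does not rank the true differences. MiR-486 and miR-144 shared the floor of 2.91, so their bounds followed their total BM signals, and the floor of miR-451 was 9.10. At equal scaled levels the LKS array would have read 157 for miR-451, 19.5 for miR-486 and 10.7 for miR-144. The authors' value table, on a log2-like scale, does not rank them either, since its LKS values for the members come from signals that were not detected. In it miR-486 stood at -0.81 for LKS cells, against 4.86 for total BM, a difference of -5.67. MiR-451 stood at 3.06 for LKS cells, against 7.72 for total BM, a difference of -4.66. MiR-144 stood at -0.47 for LKS cells, against 4.12 for total BM, a difference of -4.59. The median difference of all mouse names in that table was -0.20, and 75 of the 145 miRNAs detected in total BM (51.7%) were lower by at least 1.

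The LKS array was dimmer as a whole. Its 6 non-miRNA probes detected on both arrays were brighter on total BM by factors from 1.20 to 2.03, and the 1 viral probe detected on both by 2.73. Without scaling, the bounds of miR-451, miR-486 and miR-144 were 28.5-fold, 11.1-fold and 6.06-fold. Unscaled, 79 of the 145 miRNAs detected in total BM (54.5%) passed the 2-fold rule. The part of the dimmer array in these bounds was not tested. With each array's background recentred on the miRNAs detected on neither array, miR-144 fell short of the 2-fold rule, with a bound of 1.49-fold, and the bound of miR-486 was 2.54-fold. Scaled to the 75th percentile of all mouse names, most of them undetected, miR-451 alone passed the rule at 3.98-fold, with 1.55-fold for miR-486 and no bound for miR-144. In bulk samples such as these, fewer cells of a type and less of the RNA per cell cannot be told apart.

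MiRNAs next to the members in total BM brightness had unlike LKS signals. MiR-130b, directly below miR-451 in the total BM order, read 263 ± 24.98 in LKS cells and 257 ± 24.3 in total BM. MiR-331-3p, directly above miR-486, read 23.8 ± 3.49 in LKS cells and 32.5 ± 4.01 in total BM. Both were detected on both arrays and lay within 2-fold after scaling. MiR-99a, directly below miR-144, read 161 ± 15.4 in LKS cells and 17.6 ± 3.37 in total BM, 15.1-fold higher in LKS cells. MiR-188-5p above miR-451, miR-134 below miR-486 and miR-150 above miR-144 were detected in total BM only. The name with nearly the start of miR-144, miR-101a, did not share its pattern. It read 10.2 ± 2.81 in LKS cells, where it was detected, and 8.20 ± 2.91 in total BM, where it was not. LKS minus total BM was only 0.49 combined errors for miR-101a, so its call differed between near-equal signals.

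The miRNAs with the nearest values to each member were found by the Euclidean distance over the 2 values of the authors' table, among the 149 other mouse miRNAs detected on at least 1 array. MiR-144 was nearest to miR-874 (0.54), miR-760 (0.71) and miR-486 (0.81). MiR-486 was nearest to miR-680 (0.73), miR-760 (0.81) and miR-144 (0.81). MiR-451 was nearest to the array name miR-801_v10.1 (1.10), miR-139-5p (1.34) and miR-188-5p (1.49). All of these were detected in total BM only. Their LKS values come from signals that were not detected, and their total BM values from probes that differ in affinity. The distances therefore describe places in the table and do not order the miRNAs by likeness.

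**Figure D3:**
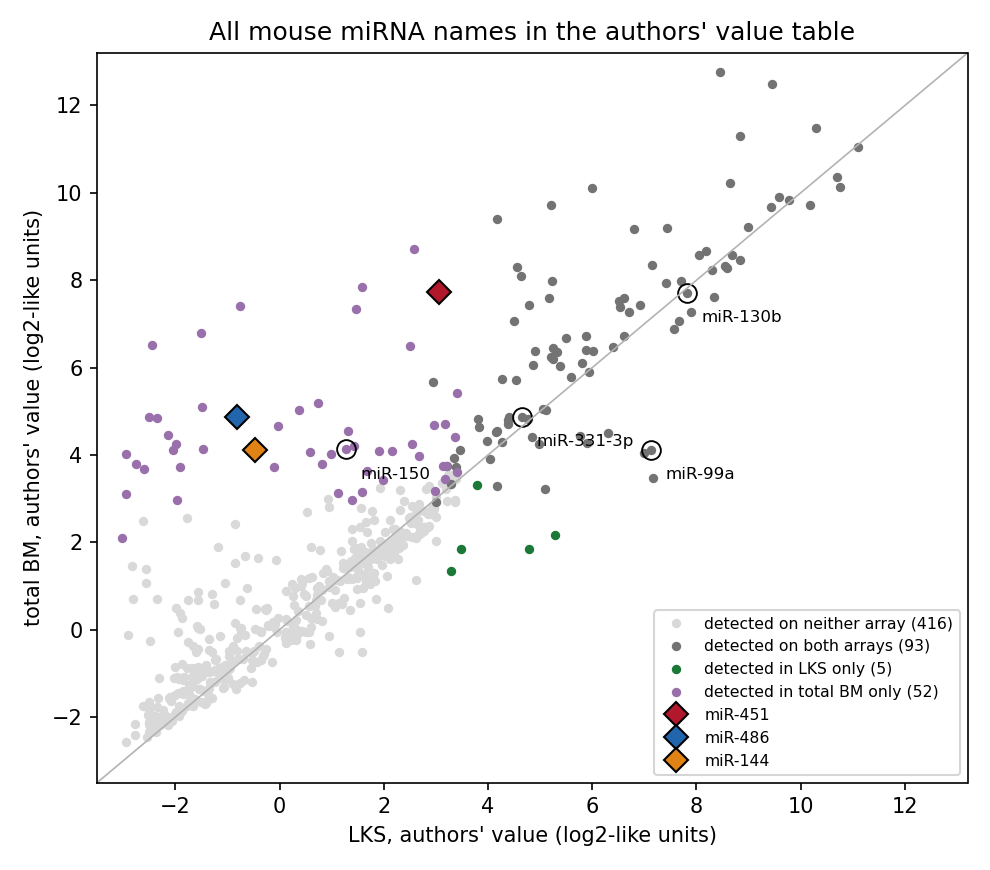
Authors' value (log2-like units) of each mouse miRNA name in LKS cells (horizontal) and total BM (vertical), coloured by detection call, with a line of equal values. The diamonds show miR-451 at 3.06 for LKS cells and 7.72 for total BM, miR-486 at -0.81 and 4.86 and miR-144 at -0.47 and 4.12 on the same axes, all from LKS signals that were not detected. Black circles mark miR-150, miR-99a, miR-130b and miR-331-3p, neighbours of the members in total BM signal.

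The other miRNAs reported to change in erythroid maturation went in both directions, and the list used gives no direction of change for any of them. Of 16 on that list, 5 were at least 2-fold lower in LKS cells, 3 at least 2-fold higher, 3 within 2-fold and 5 detected on neither array. The 5 lower ones were among the 11 on the list that total BM detected, beside 55 of all 145 names detected there (37.9%). Of all 566 mouse names, 55 (9.72%) were at least 2-fold lower, 21 (3.71%) at least 2-fold higher and 416 (73.5%) detected on neither array. The lower ones were miR-22 (4.86-fold), miR-16 (2.21-fold), miR-223, a neutrophil miRNA (5.34-fold), and, detected in total BM only, the hypoxia-induced miR-210 (at least 3.96-fold) and the lymphocyte miRNA miR-150 (at least 3.69-fold). The higher ones were miR-126-3p (5.98-fold), miR-155 (4.26-fold) and miR-221, which targets Kit (2.61-fold). MiR-15a (log2 ratio of LKS over total BM -0.95 ± 0.15, with the propagated technical error), miR-24 (0.35 ± 0.15) and miR-103 (0.03 ± 0.18) lay within 2-fold, and miR-96, miR-182, miR-183, miR-191 and miR-222 were not detected. The median over the 16 was -1.64 combined errors, unscaled, beside -0.86 over all mouse names.

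Markers of mature cells of other lineages were lower in LKS cells as well. The signals and sums given here are unscaled. The 3 erythroid names summed to -10.6 in LKS cells, against 309.6 in total BM. That LKS sum comes from background-subtracted signals that were not detected, so it is no amount. The neutrophil miRNA miR-223 read 822 in LKS cells, against 7250 in total BM. The 2 lymphoid markers, miR-150, which was not detected in LKS cells, and miR-342-3p, summed to 34.8 there, against 332 in total BM. The blood-wide pair miR-142-3p and miR-142-5p was also lower, at 163 in LKS cells, against 948 in total BM. The 6 stem and progenitor markers, all detected in LKS cells and 5 of them in total BM, went the other way. Their sums were 644 in LKS cells, against 91.04 in total BM. The marker lists were chosen with earlier results of these data known, so their directions are no independent support. By comparison, 98 of all 566 mouse names (17.3%) were detected in LKS cells and 145 (25.6%) in total BM. None of 4 stroma and 3 muscle miRNAs was detected on either array, which held for 73.5% of all mouse names. The part of each cell type's share in the erythroid difference was not tested.

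**Figure D4:**
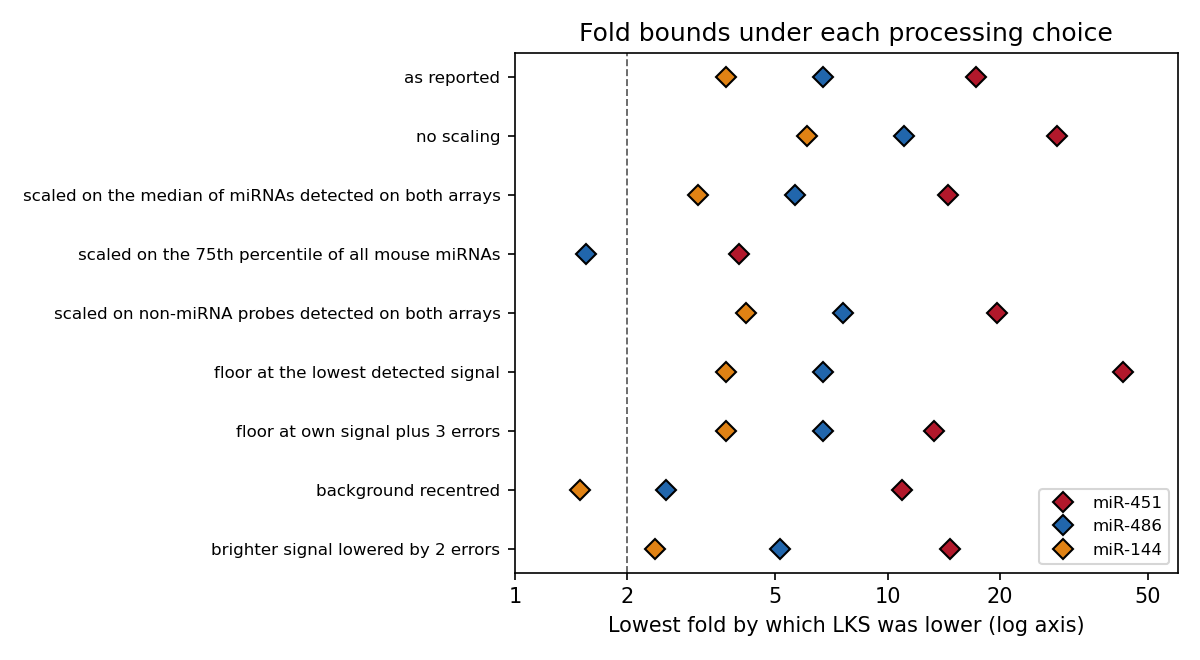
Lowest fold (log axis) by which miR-451, miR-486 and miR-144 were lower in LKS cells than in total BM, as reported and under each processing choice, with a dashed line at 2-fold. MiR-451 stays right of the line at every setting, from 3.98 to 42.9, while miR-144 lies left of it after recentring. The 42.9 divides by the undetected LKS signal of miR-451 with no error added, so it is no lower bound. With the 75th percentile of all mouse miRNAs, miR-486 lies left of it at 1.55 and miR-144 gives no bound.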

How the data were processed

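The first table deposited by the authors holds an intensity on a linear scale (total gene signal), an error of each and a detection call of 0 or 1, per the file headers. RNA was extracted with miRNeasy and labelled with Cy3, per the labels' protocols. The sources used here name no scanner, extraction software or rule behind the call. The authors' second table holds log2-like values that rank all 576 miRNA names as the signals do. They were fitted, with residuals below 1e-08, by arsinh(a × signal + b) plus a constant, with that sum converted from natural log to log2 units. The scale of that table is thus known (medians 1.00 for LKS and 1.46 for total BM) and the choice of its constants is not.

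Folds, bounds, combined errors and ranks were computed from the signals with Python 3.11.15, numpy 2.4.6, pandas 2.3.3 and scipy 1.17.1, and hairpins were folded with RNAfold 2.7.2. The code was tested on simulated arrays, which, unlike these arrays, had no background offset and a call by a plain threshold. No test was possible with 1 array per group, whose number limits the precision. Named miRNAs were the members, the 3 nearest to each, the next above and below in total BM signal, names sharing bases 2 to 7, and a list of 16 miRNAs reported to change in erythroid maturation. Members and lists were chosen with earlier results of these data known. Each member matched 1 RefSeq gene, and sequences were at hand for miR-144 and miR-451. Other scalings, floors, backgrounds and thresholds were tried.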

Additional observations from a re-analysis of the deposited data

How the results depend on the processing

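No paired analysis was possible because there was 1 array for LKS and 1 for total BM, which also left none to omit. Each bound is given for miR-451, miR-486 and miR-144 in that order, against 17.3-fold, 6.71-fold and 3.67-fold as reported. No scaling gave 28.5, 11.1 and 6.06. Median scaling gave 14.6, 5.65 and 3.10, and scaling on the non-miRNA probes 19.6, 7.61 and 4.17. The 75th percentile of all mouse miRNAs, 1.12 for LKS and 8.0 for total BM, gave 3.98 and 1.55 and no bound for miR-144, so 1 member stayed at least 2-fold lower. That percentile lies below the lowest detected LKS signal. A floor with no errors added, at the lowest detected signal or the own signal if higher, moved only miR-451, to 42.9. That value rests on the undetected LKS signal of miR-451, 3.67, and is no lower bound. A floor of 3 errors moved miR-451 to 13.3. Recentred backgrounds gave 10.96, 2.54 and 1.49, so 2 members passed, because the lowest detected LKS signal became 8.55. Lowering the total BM signal by 2 of its errors gave 14.7, 5.15 and 2.37. Thresholds of 1.5-fold and 4-fold were passed by 3 and 2 members, and by 66 and 29 of the 145 miRNAs detected in total BM. The number of all mouse miRNAs at least 2-fold lower in LKS cells was 55 as reported, 79 unscaled, 15 with the 75th percentile of all mouse miRNAs and 31 after recentring. Recentring left the differences at -12.9, -8.03 and -5.31 combined errors.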

Other observations

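The detection call was not a plain threshold on signal. Of the names not detected in LKS cells, 25, miR-451 among them, had signals above the lowest detected one, 2.91, and the highest of these was 6.39.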
